A study of Mus musculus with 18 samples.

Results

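The genes of the liver RNA-seq table were grouped by whether their promoter held an ATAC-seq summit in WT refed liver, and their expression in the same condition was set beside it. A summit is the single position of strongest signal in a peak of accessible chromatin. A gene was given a promoter summit in a file when a summit lay within 1000 bp on either side of any of its RefSeq transcript starts (mouse build GRCm38.p6, the mm10 of the files). Of 15572 genes in the count table, 15547 had an annotated start and were grouped. A summit was found in both WT refed files for 1165 genes (7.49%), in file 1 only for 1260, in file 2 only for 355 and in neither for 12767 (82.1%). Expression was the sum of the deposited transcript counts of a gene, given per 1000000 counts of the library (CPM) or, wherever the levels of different genes are compared, as TPM, the same with transcripts in place of counts, which also divides by transcript length.

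The study profiled livers of c57bl/6j mice with 3 assays in 18 samples, and this comparison used the 2 RNA-seq and 2 ATAC-seq samples of WT refed mice. These mice were wildtype littermates of mice lacking JMJD1C in the liver, had been kept on chow for 6 to 8 weeks, and were refed a high carbohydrate diet after an overnight fast. Refeeding lasted 6 h by the labels, while the study's methods give 8 to 16 h and an age of 12 weeks for such experiments in general. Each ATAC-seq sample was the nuclei of 1 liver, whereas each RNA-seq library came from RNA pooled over animals, and no source states that the same animals served both assays. JMJD1C-LKO mice, used below for a second RNA-seq group, carry a floxed Jmjd1c allele deleted by Cre under the albumin promoter, and were refed in the same way. The libraries held 51387300 and 51265128 counts in WT refed liver and 51408989 and 54400509 in JMJD1C-LKO refed liver. All 12 hepatocyte markers were present at 288 TPM or more, with a summed level of 119300 and 118700 TPM in WT refed libraries 1 and 2. Markers of other cells were far lower, at 284 and 302 TPM for Kupffer cells and macrophages, 85.2 and 84.6 for endothelium, 164 and 175 for stellate cells and fibroblasts, 27.5 and 31.95 for cholangiocytes and 8.05 and 7.81 for lymphocytes. The list of erythroid and pancreas markers, 5 of 10 in the table and led by Hba-a2, summed to 2189 and 1290 TPM. In whole liver, a low level can mean few cells of a type or little RNA per cell, and these cannot be told apart.

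In ATAC-seq a transposase cuts exposed DNA, so that nucleosome-depleted promoters and enhancers gather reads. Promoters dense in CpG dinucleotides, typical of housekeeping genes, are often kept open by general factors, while many genes that make the hepatocyte what it is, such as those for plasma proteins, start from CpG-poor promoters, some with a TATA box, and rely on enhancers bound by HNF1, HNF4, C/EBP and FOXA factors. Steady levels of mRNA also depend on how long the message lasts, so openness and abundance measure different things. The summit lists hold only peaks past the caller's threshold, with neither widths nor read counts, so their depth is unknown. A promoter without a summit was not detected as open at that depth, which does not make it closed.

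To show what these promoters look like, those of the genes with the highest TPM in each group are printed, among promoters found unchanged in the RefSeq promoter table. Each run covers 250 bases before to 50 bases after the start of the most abundant transcript, read 5′ to 3′ on the strand of the gene in GRCm38.p6, with every CpG dinucleotide in capitals. The first 3 belong to highly expressed genes with no summit in either file: albumin (Alb), apolipoprotein E (Apoe) and apolipoprotein A2 (Apoa2).
Alb, chr5:90460620-90460919, plus strand: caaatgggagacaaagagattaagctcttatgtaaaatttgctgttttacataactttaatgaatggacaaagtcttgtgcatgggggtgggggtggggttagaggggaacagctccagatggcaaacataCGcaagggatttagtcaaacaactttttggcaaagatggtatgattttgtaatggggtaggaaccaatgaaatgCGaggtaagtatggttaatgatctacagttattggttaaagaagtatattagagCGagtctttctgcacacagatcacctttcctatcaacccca
Apoe, chr7:19698572-19698871, minus strand: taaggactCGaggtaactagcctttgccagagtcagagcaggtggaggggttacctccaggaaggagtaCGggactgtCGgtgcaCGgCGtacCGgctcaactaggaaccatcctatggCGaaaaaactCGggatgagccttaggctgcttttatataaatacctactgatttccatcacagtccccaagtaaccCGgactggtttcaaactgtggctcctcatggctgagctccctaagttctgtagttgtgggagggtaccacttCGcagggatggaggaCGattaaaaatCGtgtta
Apoa2, chr1:171224804-171225103, plus strand: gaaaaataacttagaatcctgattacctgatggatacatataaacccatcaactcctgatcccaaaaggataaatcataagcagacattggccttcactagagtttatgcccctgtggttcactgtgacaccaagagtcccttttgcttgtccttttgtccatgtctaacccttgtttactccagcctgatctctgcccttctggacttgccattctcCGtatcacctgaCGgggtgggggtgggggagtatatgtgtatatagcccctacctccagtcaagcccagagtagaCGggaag
The next 3 belong to genes with a summit in both files: Gm20594, a predicted gene, Ndufa4, a small subunit associated with cytochrome oxidase, and Atp5b, the beta subunit of ATP synthase.
Gm20594, chr6:79817781-79818080, plus strand: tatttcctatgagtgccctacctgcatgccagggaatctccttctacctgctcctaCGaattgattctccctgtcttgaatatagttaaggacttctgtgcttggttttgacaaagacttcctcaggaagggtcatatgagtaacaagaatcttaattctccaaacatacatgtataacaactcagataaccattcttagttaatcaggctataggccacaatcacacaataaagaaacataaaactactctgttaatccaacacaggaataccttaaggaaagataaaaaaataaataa
Ndufa4, chr6:11907401-11907700, minus strand: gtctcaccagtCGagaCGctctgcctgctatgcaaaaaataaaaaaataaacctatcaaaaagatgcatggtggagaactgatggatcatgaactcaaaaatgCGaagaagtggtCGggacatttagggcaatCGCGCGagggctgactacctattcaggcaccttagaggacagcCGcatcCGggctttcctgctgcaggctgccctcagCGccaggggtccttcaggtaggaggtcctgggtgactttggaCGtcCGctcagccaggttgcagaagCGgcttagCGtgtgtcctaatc
Atp5b, chr10:128083057-128083356, plus strand: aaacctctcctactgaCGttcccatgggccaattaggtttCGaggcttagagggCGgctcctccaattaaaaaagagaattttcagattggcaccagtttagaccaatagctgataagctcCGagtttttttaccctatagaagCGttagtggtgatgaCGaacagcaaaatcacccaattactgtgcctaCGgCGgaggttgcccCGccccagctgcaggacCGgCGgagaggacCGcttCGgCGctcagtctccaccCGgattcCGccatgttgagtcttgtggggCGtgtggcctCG
Alb and Apoa2 each held 3 CpG in 300 bases and Apoe 12, against 14 for Ndufa4 and 18 for Atp5b. Gm20594 held 1, fewer than any of the 3 with no summit, and its summits, at 270 and 277 bp after the start, shared a run of 25 bases with the mitochondrial genome, the only promoter summit of each file that did. Whether mitochondrial reads gave these summits was not tested.

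Genes with a promoter summit in both files were expressed at a higher median level than genes with none, but over a wide and overlapping range. Their median was 9.80 TPM in library 1 and 10.4 in library 2, with quartiles of 3.54 and 25.8 in library 1. Genes with a summit in 1 file only had medians of 8.18 and 8.29 TPM. Genes with none had medians of 3.94 and 4.04 TPM, with quartiles of 0.513 and 17.7 in library 1. The ratio of the medians, both files over neither, was 2.49 and 2.56 in the 2 libraries. On the CPM scale the ratio was 2.65 and 2.70. Over the 1368 genes of at least 100 CPM in both, the libraries differed between themselves by a median of 0.06 on the log2 scale. Genes of few counts can differ more, such as Casc1 at 0.08 and 0.18 CPM. The medians and ratios are descriptions over genes, which are not replicates of a condition, and no test was made of them.

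The groups differed most in their share of genes with little or no expression, and less higher up. Of the genes with summits in both files, 89 (7.64%) were under 1 CPM in both libraries, against 3438 (26.9%) of those with none. Among genes of at least 1 CPM in both libraries the medians were 11.9 and 12.2 TPM with summits in both files and 9.53 and 9.78 with none, a ratio of 1.25, although this limit is set on expression itself. The upper quartiles in library 1 were 25.8 TPM with summits in both files and 17.7 with none. The 90th percentiles in library 1 were 72.0 TPM with summits in both files and 67.2 with none, and the highest gene of each group was Hspa8 at 2089 TPM and Alb at 70620 TPM (mean of both libraries). The 1165 genes with summits in both files held 5.68% and 5.77% of all counts, and the 12767 with none held 85.9% and 86.0%.

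**Figure D1:**
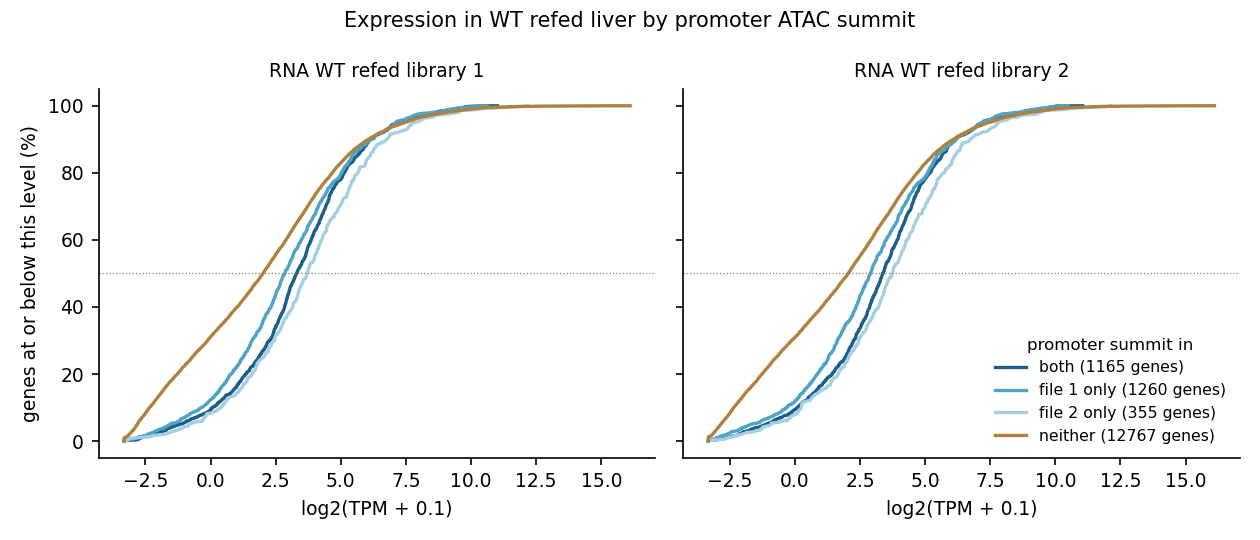
Share of genes at or below each expression level, log2(TPM + 0.1), in WT refed RNA libraries 1 (left) and 2 (right), with 1 line for each group of genes by promoter summit and a dotted line at 50%. The line for genes with no summit lies above the others at low levels, with a median of 3.94 against 9.80 TPM for genes with a summit in both files in library 1, and the lines meet at the top.

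The share of genes with a summit did not rise steadily with expression. Under 1 CPM (mean of both libraries), 6.08% of 3814 genes had a summit in either file. The share was 17.8% of 4210 genes at 1 to 10 CPM, 24.7% of 6128 genes at 10 to 100 CPM and 21.5% of 1272 genes at 100 to 1000 CPM. At 1000 CPM and over it was 10.6%, or 13 genes. Each file gave the same order at the top, with 21.4% at 10 to 100 CPM against 8.13% at 1000 CPM and over in file 1, and 14.3% against 8.13% in file 2. On the TPM scale the shares were 6.997%, 21.5%, 23.9%, 20.4% and 9.63% over the same limits.

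CpG content of the promoter moved with this pattern. Taking a promoter as CpG-rich when its CpG count was at least 0.6 of that expected from its base composition, 79.1% of the genes at 10 to 100 CPM were CpG-rich, against 30.1% at 1000 CPM and over. Within CpG-rich promoters the share with a summit was 12.9% under 1 CPM, 27.3% at 10 to 100 CPM and 27.0% at 1000 CPM and over, the last over 37 genes. Within CpG-poor promoters it was 1.76%, 14.8% and 3.49%, the last over 86 genes, of which 3 had a summit. On the TPM scale the share within CpG-rich promoters did fall at the top. It was 27.0% at 10 to 100 TPM, 28.1% at 100 to 1000 TPM and 19.6% at 1000 TPM and over, the last over 56 genes. Within CpG-poor promoters it was 13.3%, 9.98% and 2.53% over these limits. With limits of 0.5 and 0.7 in place of 0.6, the shares at 1000 CPM and over were 29.3% and 26.1% for CpG-rich and 1.22% and 7.0% for CpG-poor promoters. The medians also differed by CpG content. Among CpG-rich promoters, genes with summits in both files had medians of 10.03 and 10.65 TPM and genes with none 6.76 and 6.89. Among CpG-poor promoters these were 7.90 and 8.50 TPM against 1.36 and 1.34, and 40.8% of the CpG-poor genes with no summit were under 1 CPM. The part of CpG content in the pattern was not tested.

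**Figure D2:**
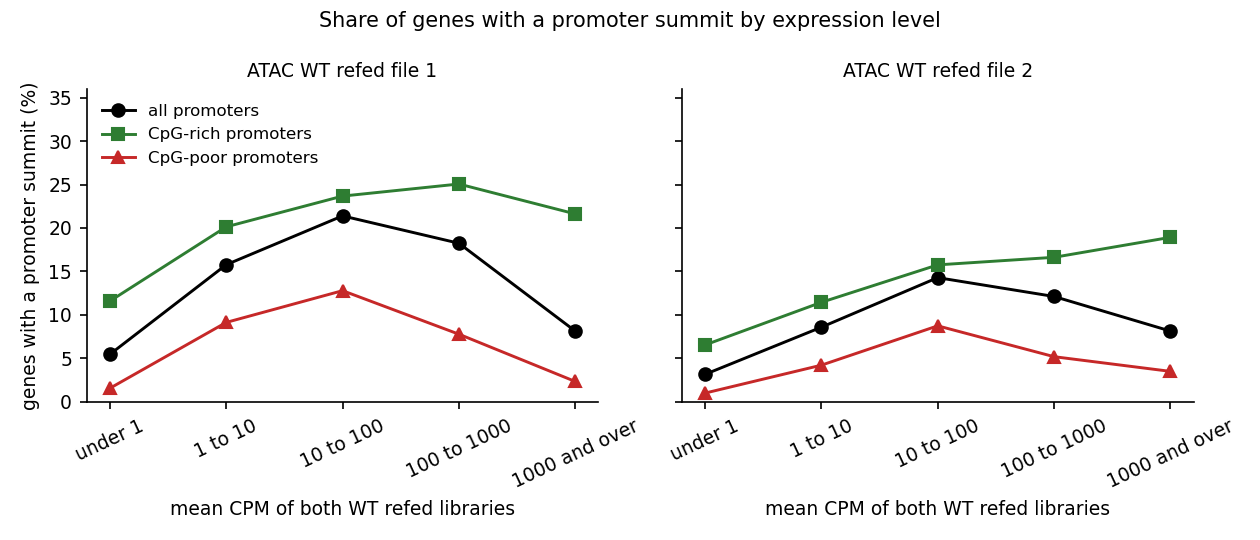
Percent of genes with a promoter summit in ATAC WT refed file 1 (left) and file 2 (right) by mean CPM of both WT refed RNA libraries, for all promoters (circles), CpG-rich promoters (squares) and CpG-poor promoters (triangles). Over all promoters the share was highest at 10 to 100 CPM and fell to 8.13% in both files at 1000 CPM and over, while among CpG-rich promoters it was 21.6% and 18.9% there.

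None of the 15 genes with the highest mean CPM had a promoter summit in either refed file. Albumin alone took 86810 CPM in library 1 and 85709 in library 2. Apoe, which carries lipid in lipoproteins, followed with 24846 and 23883 CPM, and Trf, the iron carrier transferrin, with 16569 and 17279. Others were Ahsg, Apoa1, Serpina3k, Serpina1c, complement C3, Cyp2e1, Apoa2, Ttr, Selenop, Cyp3a11 and Mup3, most of them genes for secreted proteins. The nearest refed summit in either file lay between 2830 bp (C3) and 724642 bp (Selenop) from a start. Serpina1c, Serpina3k, Cyp3a11 and Mup3 belong to families of near-identical copies, so the counts of single members are uncertain. Their class is also uncertain where reads of near-identical promoters could not be placed.

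Highly expressed genes were taken as those of at least 100 CPM in both libraries. Of 1368 such genes, 1090 (79.7%) had no summit in either refed file, 117 had a summit in both and 161 in 1. The share with none was close to the 82.1% of all genes. The 1090 genes held 68.5% and 68.4% of all counts. Next to the limit of 100 CPM, Fpgs (110 and 99.9 CPM) fell just outside and Capns1 (100.5 and 101.2 CPM) just inside. After albumin, Apoe and Apoa2, the highest in TPM were Apoc1, at 21279 and 19890 TPM, Apoa1, at 18517 and 18079, and Fabp1, the fatty acid carrier of the hepatocyte cytoplasm, at 17111 and 16226. Below them came Ahsg, a plasma glycoprotein of liver origin, at 12513 and 12957 TPM, Rbp4, the plasma carrier of retinol, at 10502 and 11004, and Ftl1, the light chain of the iron store ferritin, at 8257 and 8611.

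The highly expressed genes with no promoter summit were as a rule far from any refed summit. The median distance to the nearest one in either file was 101900 bp, 5 of the 1090 genes (0.459%) had one within 2500 bp, and 54 (4.95%) within 10000 bp. A summit lay within the transcribed region of 39 (3.58%). All genes without a promoter summit had a median distance of 110800 bp, with 0.830% within 2500 bp. The nearest to Csad, an enzyme of taurine synthesis, was a summit of file 1 at 2566 bp. The window itself decided little: in file 1 the nearest summit lay within the last 100 bp of the window for 10 genes, and within the 100 bp beyond it for 12.

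Other samples of the series gave a summit to some of these promoters. In WT fasted liver, 141 of the 1090 genes (12.9%) had a promoter summit in at least 1 of the 2 files and 15 (1.38%) in both, against 9.66% and 0.995% of all genes without a refed summit. Albumin was among the 15, with a summit in both fasted files and in JMJD1C-LKO refed file 1 but in neither WT refed file. So were Rps29, a protein of the small ribosomal subunit, at 1601 and 1552 TPM, and Creb3l3, a liver transcription factor, at 222 and 217 TPM. The files differ in length, with 5220 and 7632 summits in the fasted livers, 5027 and 3119 in WT refed liver, and 1450 and 825 in JMJD1C-LKO refed liver, so that a summit present in 1 list and absent from another is no measured difference in openness. H3K9me2 is a methylation of histone H3 often found at silent genes. A summit of it lay in the promoter window of 983 of the 1090 genes (90.2%) in refed file 2 and of 3 in refed file 1. Refed file 1 has 1297 summits against 9929, and gave a promoter summit to 24 genes of the table against 8800. The refed shares of this mark thus rest on 1 sample. In the 2 WT fasted files the mark had a summit at 84.0% and 94.5% of the 1090 genes, beside 47.25% and 68.4% of all genes. The same mark had a summit at 87.2% of the genes with ATAC-seq summits in both files and 50.6% of those with none, again in refed file 2. In that file it had one at 56.6% of all genes. Of the 278 highly expressed genes with an ATAC-seq summit in either refed file, 96.8% had one, so the 90.2% is not particular to promoters without a summit.

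The promoter sequences of the groups differed in composition. The median ratio of observed to expected CpG was 0.827 for genes with summits in both files, 0.676 for genes with none, 0.622 for highly expressed genes with none and 0.277 for the 110 genes of 1000 CPM and over with none. The TATA box TATAAA, searched on the strand of the gene, occurred in 24.5% of these 110 promoters, against 5.47% of all 15547 promoters and 3.69% of those with summits in both files. Between 35 and 25 bases before the start it occurred in 10.9% of the 110 and 1.47% of all. The C/EBP half-site pair TTGCNNAA, searched on both strands like the motifs that follow, was found in 26.4% of the 110 promoters and 9.13% of all, and the forkhead motif TGTTTNC in 30.9% and 16.1%. The GC box GGGCGG was less frequent in the 110, found in 29.1% of them, 58.2% of all and 73.3% of promoters with summits in both files. These groups also differ in expression. Among highly expressed genes, TATAAA was in 9.54% of the 1090 with no summit and 6.475% of the 278 with one. At 35 to 25 bases before the start these shares were 3.67% and 1.80%. In the same order, TTGCNNAA was in 14.2% and 8.99%, TGTTTNC in 19.4% and 11.15%, and the GC box in 50.8% and 71.6%. The CCAAT box was above its share of all promoters (38.4%) both in the 110 (49.1%) and in promoters with summits in both files (53.2%). The E-box CACGTG, the sequence bound by USF factors, was held by 5.45% of the 110, 9.31% of all promoters and 8.33% of those with summits in both files. A match is a run of letters and not a bound site, and the GC box holds a CpG itself, so its share moves with CpG content. TATAAA, TTGCNNAA and TGTTTNC are mostly A and T, and the groups differ in base composition. The median GC content was 50.2% for the 110, 59.7% for all promoters and 62.3% for those with summits in both files. Among highly expressed genes it was 57.0% with no summit and 62.3% with one. Whether base composition gives the shares of these motifs was not tested.

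Looking back at the printed promoters, that of Apoe held TATAAA at position -96 from the start and that of Apoa2 at -212, and the other 4 did not hold these letters in the window. None of the 3 promoters with no summit held them between 35 and 25 bases before the start.

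**Figure D3:**
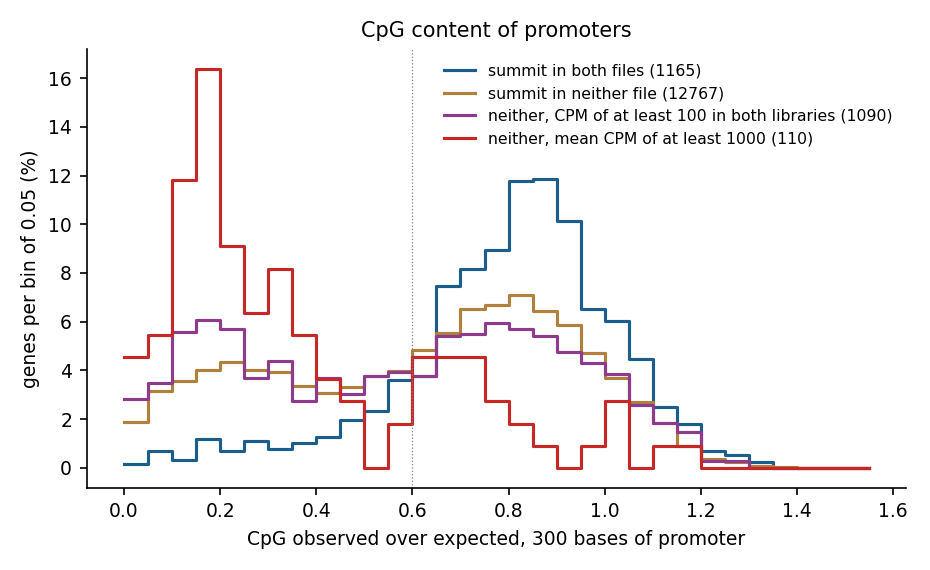
Distribution of the CpG ratio (observed over expected in 300 bases of promoter), in percent of genes per bin of 0.05, for genes with a summit in both files, with none, with none and at least 100 CPM in both libraries, and with none and a mean of at least 1000 CPM. The dotted line marks 0.6, and the medians were 0.827, 0.676, 0.622 and 0.277 in that order.

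Among genes with summits in both files, Hspa8 was the highest in TPM, followed by Gm20594 at 1173 and 980 TPM. Hspa8, the constitutive cytosolic Hsp70 chaperone, reached 2061 and 2117 TPM, with its summit at rank 576 of 5027 in file 1 and 394 of 3119 in file 2. Ndufa4 reached 1018 and 1028 TPM, Atp5b 925 and 1051, and Hspa5, the chaperone BiP of the endoplasmic reticulum, 867 and 959. Rps23, of the small ribosomal subunit, stood at 828 and 823 TPM and Rpl7, of the large subunit, at 816 and 863. Pemt, which makes phosphatidylcholine by methylation, stood at 667 and 644 TPM. Most of these summits lay close upstream of the start, at -191 and -154 bp for Hspa8 and -150 and -147 bp for Atp5b. Genes of translation have many processed copies in the genome, so their counts and summits are less certain.

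Some genes with a summit in file 2 only stood above Hspa8, the highest of those with both. Of the genes with a summit in file 2 only, Mgst1, a microsomal glutathione transferase, stood at 4616 and 4503 TPM, Eef1a1, the elongation factor that brings tRNA to the ribosome, at 3400 and 3918, and Cyb5a, cytochrome b5, at 2276 and 2142. Of those in file 1 only, Cox7c, of cytochrome oxidase, stood at 1568 and 1439 TPM, Dbi, an acyl-CoA binding protein, at 1189 and 1161, and Acaa2, the last enzyme of mitochondrial fatty acid oxidation, at 1142 and 1205. Median levels were 7.14 and 7.38 TPM for file 1 only and 13.01 and 13.24 for file 2 only, while file 2 is the shorter list. In file 1, 48.0% of the genes with a promoter summit also had one in file 2, and in file 2, 76.6% also had one in file 1.

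The strength of the summit told little about expression once both files had one. Across the 1165 genes, Spearman's rho between the rank of the strongest promoter summit and TPM lay between 0.0338 and 0.0356 over the pairings of the 2 files with the 2 libraries, while the ranks of the 2 files gave 0.434 with each other. This is a correlation across genes, which share libraries and in part summits, and it is given as a description. All genes with a promoter summit in a file, whether or not the other file had one, were also cut by rank into 4 groups of nearly equal size. From strongest to weakest, the median level in library 1 was 8.13, 8.16, 8.60 and 8.58 TPM for file 1. For file 2 it was 10.8, 9.19, 10.1 and 12.9 TPM, highest in the weakest group. Rank did go with recurrence, since 79.6% of the strongest group of file 1 and 28.7% of its weakest also had a summit in file 2. In genes with both, the 2 summits lay a median of 49 bp apart, within 200 bp of each other in 1055 genes (90.6%), and at a median position of -136 bp (file 1) and -134 bp (file 2) from the start, where negative means upstream. The strongest summits of the files were mostly elsewhere, with 3 and 4 of the 100 strongest near a start. Of all summits 43.5% and 42.5% lay near a start, and 0.959% and 1.36% of those lay in repeats, against 72.6% and 73.8% of the others.

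**Figure D4:**
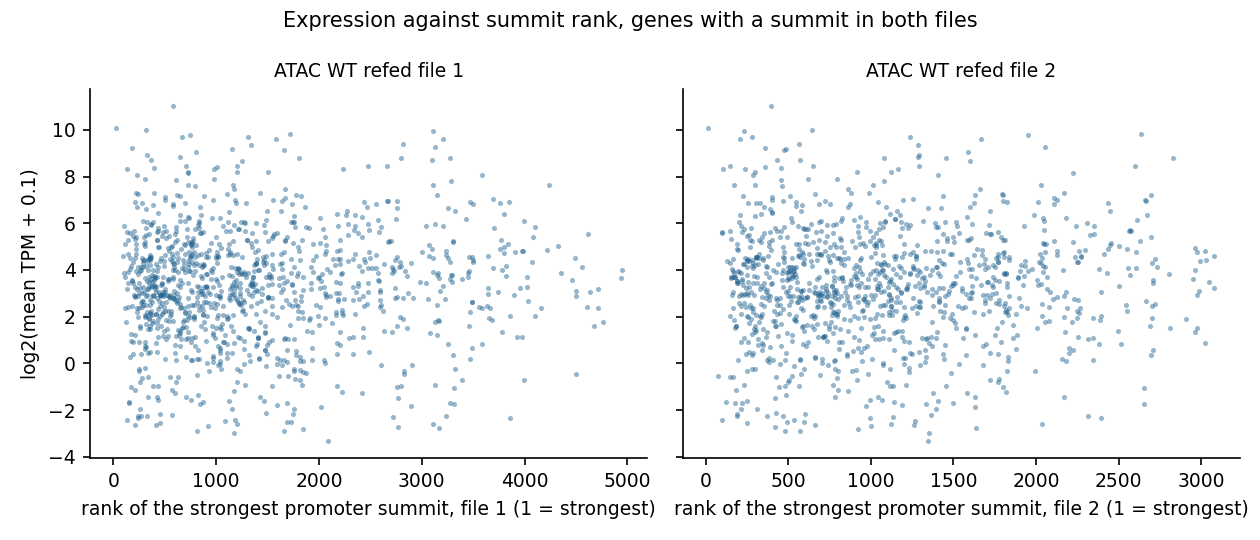
Expression, log2(mean TPM of both WT refed libraries + 0.1), against the rank of the strongest promoter summit in file 1 (left) and file 2 (right), where 1 is the strongest summit of the file and each of the 1165 points is a gene with a summit in both files. Low and high levels occur at all ranks, and Spearman's rho was between 0.0338 and 0.0356.

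The best-ranked promoters shared by both files belonged to genes of widely different expression. Apart from Gm20594, at ranks 22 and 14, they were those of Etfrf1 and Casc1 (136 and 100), Lrpprc (162 and 96), Qdpr (135 and 106), Zfp317 (112 and 167), Smc3 (117 and 174), and Setd3 and Ccnk (106 and 212). Qdpr, which regenerates the cofactor tetrahydrobiopterin, was the highest of these at 316 and 317 TPM. Lrpprc, which stabilises mitochondrial mRNA, stood at 47.7 and 47.8 TPM, Smc3, of the cohesin ring, at 13.1 and 12.9, and the zinc finger gene Zfp317 at 5.12 and 4.96.

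Several of these promoters served more than 1 gene. Casc1 and Etfrf1 have the same summits between them, but Casc1 was nearly silent, at 0.08 and 0.18 CPM, and Etfrf1, a mitochondrial electron transfer factor regulator, stood at 38.3 and 41.9 CPM. Setd3, an actin histidine methyltransferase, at 95.7 and 93.4 CPM, shares its summits with Ccnk, a cyclin of transcription, at 22.7 and 23.1. Hadha and Hadhb, the subunits of the mitochondrial trifunctional protein, share theirs (ranks 725 and 296), with 279 and 314 TPM for Hadha and 180 and 220 for Hadhb. In all, 462 of the 1165 genes (39.7%) had a summit that also lay within 1000 bp of the start of another annotated gene.

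Among the 89 genes under 1 CPM in both libraries despite summits in both files, 59 (66.3%) shared the summit with another gene. For 50 of them the other gene was at 1 CPM or more and for 38 at 10 CPM or more. Ccdc103, at 0.10 and 0.14 CPM, lies beside Eftud2, a splicing GTPase at 21.7 and 23.7. BC037704 (0.93 and 0.43 CPM) lies beside Slc25a28, a mitochondrial iron carrier at 18.9 and 19.3, and Gm15612 (0.20 and 0.21) beside Abtb1 at 20.9 and 17.8. Others had no such neighbour in view, among them Pik3r3, a regulatory subunit of PI3-kinase, at 0.64 and 0.62 CPM, Rel, an NF-κB subunit typical of lymphoid cells, at 0.84 and 0.61, and Garnl3 at 0.15 and 0.36. Of the 89 promoters 72 (80.9%) were CpG-rich. Their median rank was 1200 in file 1 and 995 in file 2, beside 1167 and 985 for all genes with summits in both files.

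By gene list, summits were most frequent among genes of cholesterol synthesis, and none of the plasma protein, coagulation, complement or serpin genes had one. Each count is to be read against 7.49% of all genes with summits in both files and 82.1% with none. Of 24 cholesterol genes, 8 (33.3%) had summits in both files, 5 in 1 file and 11 in neither, at a median of 13.4 TPM. The 8 were Fdft1, squalene synthase, at 52.3 and 56.5 TPM, Hmgcs1, which makes HMG-CoA, at 29.5 and 30.7, Msmo1, Cyp51, Idi1, Srebf2, Mvk and Mvd. Srebf2, the transcription factor that drives the pathway, stood at 6.91 and 7.92 TPM. Ebp (217 and 204 TPM) and Sc5d (126 and 134), enzymes of the late steps, had none despite higher levels.

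Of 25 fatty acid oxidation genes, all highly expressed, 6 (24.0%) had summits in both files and 16 (64.0%) in neither. Among the 6 were Acadm, which starts the oxidation of medium-chain fatty acids, at 419 and 406 TPM, Etfa, Hadha, Hadhb and Etfdh. Chromatin remodelers and histone modifiers had summits in both files for 14 of 84 (16.7%), at a median of 7.54 TPM, among them Hdac2, Smarca5 and Arid4a. The 14 include Setd3, described above as an actin histidine methyltransferase. Splicing factors had 6 of 34 (17.6%), among them Hnrnpa2b1 at 282 and 288 TPM, and translation factors 9 of 66 (13.6%), among them Eif5a at 574 and 629 TPM.

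Other housekeeping lists were near the share of all genes. Of 84 cytosolic ribosomal protein genes, with a median of 650 TPM and 84.5% CpG-rich promoters, 4 (4.76%) had summits in both files and 66 (78.6%) in neither. The 4 were Rps23, Rpl7, Rps27a and Rpl35a, and Rpl28, at 1656 and 1705 TPM, was the highest of the 66. Of 78 mitochondrial ribosomal protein genes 5 (6.41%) had summits in both, of 38 proteasome genes 2 (5.26%), of 37 tRNA synthetases 3 (8.11%) and of 75 nuclear genes of the respiratory chain 6 (8.00%). Of 14 reference genes only Polr2a, of RNA polymerase II, had summits in both, and Actb, at 625 and 615 TPM, had none.

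The lists of hepatocyte function lay at the other end. None of 23 plasma protein genes (median 954 TPM), 20 coagulation genes (395 TPM), 18 complement genes (265 TPM), 22 serpins of family a (56.8 TPM) or 12 hepatocyte markers (3651 TPM) had a refed promoter summit in either file. These lists share members, such as Alb and Ttr (plasma proteins and hepatocyte markers), Serpina6 (plasma proteins and serpins) and Serpina1a (serpins and hepatocyte markers). Of the 22 serpins 10 were highly expressed, and several others were under 1 TPM. No marker of the other cell types that was in the table had a refed promoter summit either. Of 18 apolipoprotein and assembly genes only Mttp, which loads lipid onto apolipoprotein B, had one, in file 1, at 111.7 and 125.4 TPM. Of 50 cytochrome P450 genes of families 1 to 3 only Cyp2r1, a vitamin D hydroxylase, had one, in file 1, at 6.72 and 9.79 TPM. Of 51 conjugation enzymes 2 had one, Gstk1 in both files and Gstz1 in file 1. CpG-rich promoters made up 8.70% of the plasma protein, 6.00% of the P450 and none of the coagulation, complement and serpin genes, against 62.3% of all.

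Metabolic genes of the fed and fasted state were spread between these. Of 24 lipogenic genes 1 had summits in both files, Acss2, which activates acetate, at 34.1 and 38.1 TPM. Acly, which makes cytosolic acetyl-CoA, had a summit in file 1 at -11 bp from its start, at 29.4 and 34.9 TPM, and Usf2 in file 1 and Dgat2 in file 2. Fasn, fatty acid synthase, at 26.8 and 34.4 TPM, Acaca, acetyl-CoA carboxylase, at 12.2 and 14.4, Scd1, at 129 and 127, and Gpam, at 38.2 and 40.3, had none, and neither did the regulators Srebf1, at 20.2 and 18.9 TPM, Mlxipl, at 217 and 213, and Usf1, at 15.8 and 16.5. The nearest refed summit lay 15775 bp from a start of Acaca and 251454 bp from that of Fasn. Of 12 gluconeogenic genes none had summits in both, 3 had one in 1 file, Mdh1, Pcx and Got1, and Pck1, at 977 and 791 TPM, and Fbp1, at 1513 and 1656, had none. Of 40 urea cycle and amino acid genes, 35 had none, headed by Hpd, of tyrosine breakdown, at 3041 and 2988 TPM and Ass1, of the urea cycle, at 3150 and 2809. Of 37 liver transcription factors 2 had summits in both, the clock output factor Dbp, at 157 and 150 TPM, and Nr1d2, a clock repressor, at 25.5 and 26.3. Hnf4a (274 and 303 TPM) and Cebpa (356 and 350) had none.

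**Figure D5:**
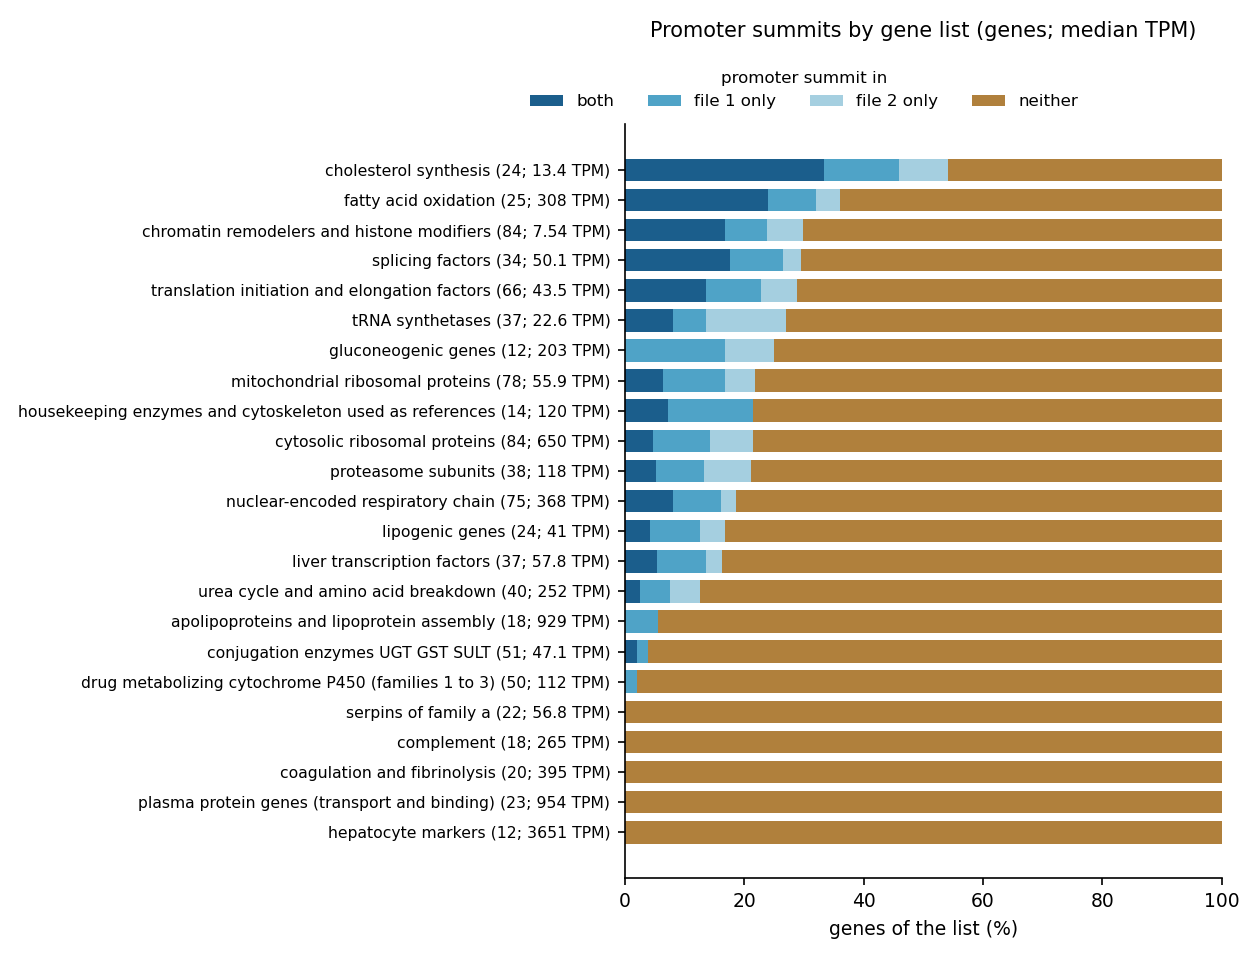
Percent of the genes of each list with a promoter summit in both WT refed ATAC files, file 1 only, file 2 only or neither, with the number of genes in the table and the median TPM (mean of both libraries) beside the name. Cholesterol synthesis has the largest share with summits in both files (33.3%), and the plasma protein, coagulation, complement, serpin and hepatocyte marker lists have none in either.

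The same genes were followed in the comparison of JMJD1C-LKO refed with WT refed liver, 2 libraries each. Jmjd1c itself stood at 22.0 and 22.8 normalised CPM in the WT and 20.04 and 20.48 in the libraries labelled JMJD1C-LKO, a log2 fold change of -0.14 ± 0.08 (SE) that did not pass edgeR's quasi-likelihood test (adjusted p = 0.233). The study reports lower Jmjd1c mRNA in livers of JMJD1C-LKO mice by quantitative PCR. A total over all exons may not show the loss of a deleted exon, so it does not check the labels. Of 14151 genes tested, 14.6% were called higher and 13.4% lower in the libraries labelled JMJD1C-LKO at an adjusted p under 0.05. Of the 1146 tested genes with summits in both files, 112 (9.77%) were higher and 177 (15.4%) lower. Of the 1090 highly expressed genes with none, 180 (16.5%) were higher and 245 (22.5%) lower, and all of these were tested. Of the 278 highly expressed genes with a summit in either file, 21 (7.55%) were higher and 81 (29.1%) lower. Over all 1368 highly expressed genes, 201 (14.7%) were higher and 326 (23.8%) lower. The median log2 fold change was -0.06 for genes with summits in both files and -0.04 for highly expressed genes with none, beside 0.01 for all genes. Leaving out 1 WT library reduced the calls: without WT refed replicate 1 or 2, genes with summits in both files had 21 or 20 higher (1.82% or 1.74%) and 43 or 42 lower (3.73% or 3.65%), beside 5.44% or 4.55% higher and 3.28% or 2.81% lower over all genes in the same fits. Highly expressed genes with none then had 96 or 82 higher (8.81% or 7.52%) and 66 or 61 lower (6.06% or 5.60%), so that more were higher than lower, the opposite of the balance with all libraries. The p-values measure the spread between pooled libraries.

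Among genes with summits in both files, Noct, a phosphatase with a daily rhythm, rose most clearly, from 24.0 and 23.0 to 60.0 and 78.3 normalised CPM (log2 fold change 1.56 ± 0.12, adjusted p = 5.95e-05). Mknk2, a kinase of the initiation factor eIF4E, rose from 90.5 and 85.3 to 169 and 208 (1.10 ± 0.10, adjusted p = 0.000172), and Ppm1k, Abhd2 and Fbxo31 by 0.84 to 1.09. Manf, a factor of the endoplasmic reticulum stress response, went from 208 and 238 to 128 and 110 (-0.90 ± 0.10, adjusted p = 0.00036), and Mphosph10, 1190002N15Rik and Tubb4b by -1.06 to -0.74.

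Of the highly expressed genes with no summit, the 5 with the smallest p in each direction are given. Scd1, the stearoyl-CoA desaturase, rose from 368 and 354 to 1315 and 1571 normalised CPM (1.997 ± 0.103, adjusted p = 1.01e-05). Bhmt, of betaine and methionine metabolism, rose from 2435 and 1786 to 8739 and 7843 (1.97 ± 0.14, adjusted p = 4.68e-05), and Upp2, Eif4ebp3 and Gnmt by 1.27 to 1.52. Cyp2c69 went from 277 and 310 to 42.3 and 38.4 (-2.86 ± 0.10, adjusted p = 1.24e-06), Serpina4-ps1 by -2.34, Cyp2c40 by -1.77, Csad by -1.17 and Inhbc by -1.16. Cyp2c and Serpina genes have close copies, so reads may have been split among them. Fasn went from 158 and 198 to 169 and 121 (-0.29 ± 0.15, adjusted p = 0.181) and did not pass the test. Srebf1 went from 51.7 and 47.2 to 58.0 and 40.8 (-0.0016 ± 0.14, adjusted p = 0.995) and did not pass either. Without JMJD1C-LKO refed replicate 1 both gained a call, at -0.56 for Fasn and -0.28 for Srebf1. Acaca fell, from 65.5 and 75.4 to 49.0 and 46.2 (-0.57 ± 0.09, adjusted p = 0.00211), a call lost without WT refed replicate 2 (-0.46).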

How the data were processed

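RNA-seq, ATAC-seq and H3K9me2 ChIP-seq of mouse liver were used. Per the methods of the study and the submitters' processing notes, ATAC-seq reads were aligned to mm10 with BWA and peaks were called in each sample with MACS2 2.1.1. The deposited summit files give 1 position per peak with the score of the authors' caller, a q-value expressed as -log10. Scores were ranked within a sample only, since read depth is unknown. The deposited RNA-seq table holds estimated counts per transcript made by the authors, of which 65.8% of values have a fractional part. HISAT2 and Partek are named in the notes, but which of them counted is not given in the sources used here. The same table holds the authors' p-value, step-up FDR and signed fold change per transcript, which were not used. The number of per-sample columns left unused is 0. Condition was taken from the sample titles, because the labels give all samples the same treatment text.

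Estimated counts were summed per gene and scaled here to CPM and, with transcript length, to TPM. Totals were 51265128 to 54400509 counts per library. Of 24994 transcripts 24823 were found in the RefSeq annotation of GRCm38.p6, and 25 genes with no match were left out of the classes. Promoters were 250 bases before to 50 bases after the start of the most abundant transcript, and 11929 of 15547 were identical to the RefSeq promoter table. Where a summit was equally far from several starts, its offset was taken from the start with the lower coordinate. A summit was called a repeat when over 50% of the 200 bases around it were masked.

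Libraries labelled JMJD1C-LKO and WT refed were compared with edgeR 4.0.16 (R 4.3.3, quasi-likelihood test, TMM, Benjamini-Hochberg adjustment) on the summed counts rounded to whole numbers, over 14151 genes that passed the filter on low counts. A permutation test of 2 against 2 samples cannot go below p = 0.333. DESeq2 1.42.0 was an alternative. Replicate numbers were not taken to pair samples, since same-numbered libraries did not deviate together (r = -0.0046 across genes). Levels by class are descriptions with no test. Tables and plots were made with python 3.11.15, pandas 2.3.3, scipy 1.17.1 and matplotlib 3.10.9.

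Members and gene lists were chosen with earlier results of these data known. Genes were named by rank: the 15 highest in CPM, the 20 highest in TPM with no summit, the 15 highest in TPM and 10 best-ranked with summits in both files, 5 for each single file, up to 10 under 1 CPM, up to 5 with and 4 without summits per list, 8 lipogenic genes, and 5 per direction by smallest p. Other genes, such as those at a limit or alone in a count, were named after their values were seen. The CpG limit of 0.6, its alternatives and the exclusion of shared summits were also chosen after seeing the data. Some genes that this rule picks are not reported here.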

Additional observations from a re-analysis of the deposited data

How the results depend on the processing

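Among the results recomputed, no ratio changed its direction. Nor did the fold change of any named gene called in the main or the other fit. Sign changes of genes called in neither fit, such as those near 0, were not counted. The balance of calls did change: highly expressed genes with no summit had 180 higher and 245 lower. Without WT refed replicate 1 or 2, more of them were higher than lower. The count of 1165 genes with summits in both files lay between 839 and 1209 under other windows, scores and starts, and with 1 ATAC-seq file left out it was 1520 (file 2 alone) to 2425 (file 1 alone). The ratio of median TPM, both files over neither, was 2.53, and 2.05 to 2.56 with 1 file or library left out. It was 2.12 with scores of at least 5, 2.40 with the same number of strongest summits per file, 2.44 with the start of the most abundant transcript only and 2.67 in CPM. It was 1.25 among genes of at least 1 CPM, which leaves out the low genes. Chosen after seeing the data, it was 2.72 without shared summits, 1.52 among CpG-rich and 6.08 among CpG-poor promoters. The 1090 highly expressed genes with no summit became 2033 (77.5%) at 50 CPM and 585 (82.2%) at 200 CPM, and 1111 to 1208 with 1 file or library left out. The comparison of JMJD1C-LKO with WT refed liver called 3958 genes, 3292 by DESeq2 and 1068 to 5180 with 1 library left out, the lowest 2 without WT refed replicate 2 (1068) or 1 (1265). With the replicate number as a block, 4207 genes were called, 116 higher and 197 lower among genes with summits in both files. This replicate block rests on numbers that are not known to pair the libraries. Among single genes, Acaca lost its call without WT refed replicate 2 (-0.46), and Fasn (-0.56) and Srebf1 (-0.28) gained one without JMJD1C-LKO refed replicate 1. The unknown depth of the ATAC-seq files limits every count of promoters with no summit.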
